A study of Lolium multiflorum with 4 samples.

Results

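In Lolium multiflorum (Italian ryegrass), 115 assembly clusters held contigs that moved in opposite directions between 0 h and 24 h. An assembly cluster is a group of similar contigs that share a name before the contig number. A cluster was chosen if, in both plant lines, at least 1 of its contigs was higher at 24 h by a log2 ratio of 1.5 or more and another was lower by a log2 ratio of -1.5 or less. The ratio was log2((24 h FPKM + 1)/(0 h FPKM + 1)), and only contigs with a mean of at least 1 FPKM over the 4 libraries, here called expressed, could qualify. FPKM is a fragment count scaled to the length of the contig and to the size of the library. The 115 clusters hold 1430 contigs, of 61184 contigs in 15237 clusters and 111761 contigs in all. The values of the 24 h against 0 h contrast chose these clusters, so everything on that contrast below is a description and none of it is tested.

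RNA was sequenced from 4 groups of 1 library each: LmHC seedlings after 24 h in 300 µM CdCl2, LmHC seedlings at 0 h, LmLC seedlings after 24 h in 300 µM CdCl2, and LmLC seedlings at 0 h. LmHC and LmLC stand for high and low cadmium, and they are read here as plant lines because the growth protocol names separate seed for each, although high and low cadmium stand in the labels as treatments. All seedlings were 2 weeks old and grew in Hoagland solution, and the labels do not say which tissue was ground or how many plants were pooled. The series set out to compare the lines' transcriptomes under cadmium. No untreated 24 h library was analysed here, so the effect of cadmium cannot be told apart from that of time. With 1 library a group there is no replicate spread, and no p-value is given. In such bulk RNA, fewer cells of a type and less RNA per cell cannot be told apart. The libraries' FPKM totals lay between 782476 and 795368, and the relative depth of paired libraries, estimated from low values, lay between 0.92 and 1.03. The absolute depth is unknown.

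A contig is a stretch of transcript pieced together from reads, and an assembler groups contigs that share long stretches of sequence. Contigs of 1 cluster can be splice forms of a gene, alleles of it, or copies of a gene family. Italian ryegrass is an outcrossing grass, so a pool of seedlings can carry several alleles of a gene. Plants are known to change both transcription and splicing under stress, and cadmium is a toxic metal that binds thiol groups and displaces essential metals. The table pairs no contig with a gene name and holds no sequence, so contigs are named as the table gives them, and splice forms, alleles and copies cannot be told apart. RSEM, the quantifier named in the submitters' processing notes, divides fragments that match several contigs among them, so values within a cluster depend on each other.

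The switching clusters were large. They held a median of 12 contigs (from 2 to 33), of which a median of 8 were expressed, against medians of 3 contigs and 3 expressed contigs over all 10812 clusters with at least 2 expressed contigs. Of those 10812 clusters, 1.06% met the rule. The share depended on how many contigs could qualify. It was 9 of 7077 clusters with 2 or 3 expressed contigs, 25 of 2072 with 4 or 5, 48 of 1332 with 6 to 10, and 33 of 331 (9.97%) with 11 or more. The median sum over a cluster's contigs, averaged over the 4 libraries, was 48.8 FPKM in switching clusters against 19.4 FPKM over all clusters with at least 2 expressed contigs.

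Of the 1430 member contigs, 993 were expressed and 437 were not. Of the 993, 239 met the limit upward in both lines (up contigs), 163 met it downward in both lines (down contigs), and 591 met neither. Over all 42997 expressed contigs of clusters, 15.9% met the limit upward and 5.24% downward. Since the rule requires both kinds, the members' shares of 24.1% and 16.4% say nothing beyond it. In 45 clusters there was 1 contig of each kind. Up contigs outnumbered down contigs in 44 clusters, the reverse held in 19, and 7 had equal numbers above 1. At most 11 up contigs and at most 4 down contigs were found in a cluster.

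By their medians, up contigs rose from very low values, and down contigs declined from moderate ones. The limit and the filter on the mean shape these values. They were not taken over all clustered contigs past the limit, so they are not read as particular to the switching clusters. The median up contig had 5.13 FPKM at 24 h and 0.12 FPKM at 0 h in LmHC, and 4.80 FPKM at 24 h and 0.15 FPKM at 0 h in LmLC. The median down contig had 2.43 FPKM at 24 h and 13.95 FPKM at 0 h in LmHC, and 2.30 FPKM at 24 h and 13.3 FPKM at 0 h in LmLC. Median log2 ratios were 2.25 in LmHC and 2.15 in LmLC for up contigs, and -2.00 and -1.97 for down contigs. At 0 h, 62 of the 239 up contigs were listed at 0 in both lines, and 107 in 1 or both. At 24 h, 13 of the 163 down contigs were listed at 0 in both lines, and 32 in 1 or both. A value of 10 FPKM or more in both lines was reached by 38 up contigs at 24 h and by 94 down contigs at 0 h. With the pseudocount of 1, a contig listed at 0 at 0 h had to reach 1.83 FPKM to qualify, and the lowest 24 h value among up contigs was 1.85 FPKM.

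**Figure D1:**
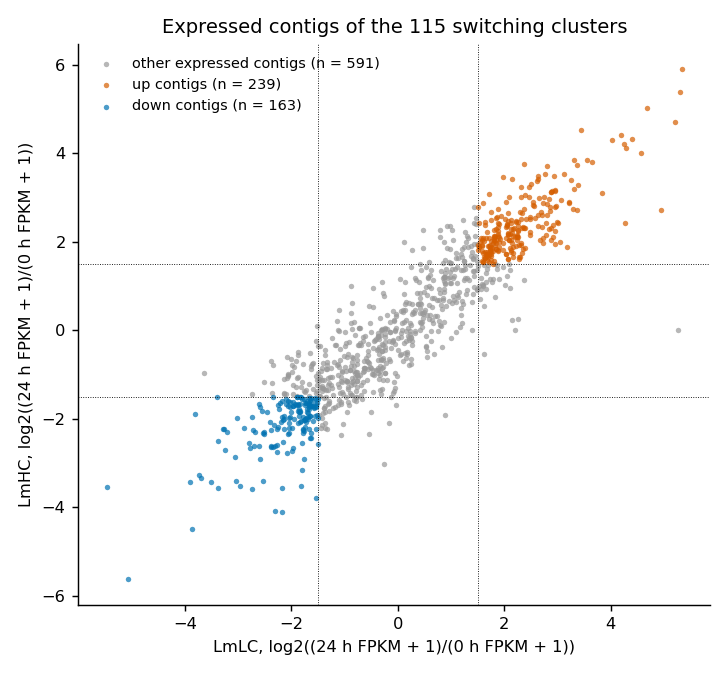
Log2 ratio of 24 h over 0 h in LmHC (vertical) against LmLC (horizontal) for the 993 expressed contigs of the switching clusters, 1 point per contig. Dotted lines mark a log2 of 1.5 and of -1.5, which chose the 239 up contigs and 163 down contigs, and 1 grey point, CL302.Contig17_All, lies at 5.25 in LmLC and 0 in LmHC.

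The other 591 expressed contigs mostly shared a direction between the lines as well. In both lines, 218 were higher and 292 were lower at 24 h, and 81 differed in sign or did not move in a line. Of these contigs, 239 stayed within 2-fold in both lines and 173 passed the log2 limit of 1.5 in 1 line only. With the pseudocount of 1, no expressed member passed 2-fold upward in one line and downward in the other. Such moves were rare among clustered contigs in general. Of all 9285 past the upward limit in LmHC, 19 moved 2-fold or more the other way in LmLC, and of 4526 past the downward limit, 4 did. The other counts of this paragraph were not taken over all clustered contigs, so none is read as particular to the switching clusters.

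How often a switch in one line recurs in the other was described by choosing clusters in a single line. The rule was applied to 1 line alone, with contigs kept if their mean over that line's own libraries was at least 1 FPKM. In LmHC alone, 303 of 10608 clusters (2.86%) met the rule, and 126 of these 303 (41.6%) also met it in LmLC. Of the 10305 clusters not chosen in LmHC, 101 (0.98%) met it in LmLC. In LmLC alone, 235 of 10841 clusters (2.17%) met the rule, and 126 of these (53.6%) also met it in LmHC, against 173 of 10606 clusters not chosen (1.63%). In 113 of the 126 clusters, a shared contig was higher in both lines and a shared contig was lower in both. The 115 clusters were chosen with both lines and make up 113 of the 126, so these shares describe how the lines overlap and are no independent support for the 115. The readouts also share the assembly.

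The difference was present within each class of cluster size. Among clusters with 2 or 3 contigs expressed in LmHC, 8 of 47 chosen in LmHC met the rule in LmLC, against 23 of 6947 not chosen. With 6 to 10 such contigs, 57 of 127 chosen clusters did (44.9%), against 29 of 1115 not chosen (2.60%). With 11 or more, 34 of 57 chosen clusters did (59.6%), against 21 of 247 not chosen (8.50%). In the reverse direction the shares for 11 or more contigs were 33 of 56 chosen in LmLC and 19 of 274 not chosen. In each of the 4 size classes and in both directions, the share meeting the rule in the second line was higher among chosen clusters than among the others.

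**Figure D2:**
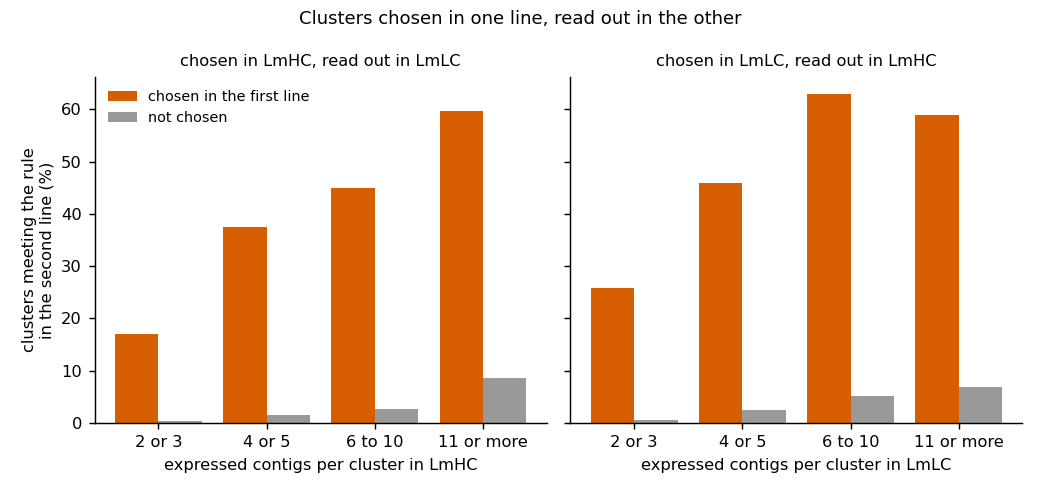
Percent of clusters that met the rule in the second line, for clusters chosen in the first line (orange) and not chosen (grey), by the number of contigs with a mean of at least 1 FPKM in the first line. In the left panel the chosen clusters range from 17.0% for 2 or 3 contigs to 59.6% for 11 or more, and those not chosen from 0.33% to 8.50%.

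The contigs behind these switches kept their direction in the second line about as often as other contigs did. Of 619 contigs past the upward limit in clusters chosen in LmHC, 598 (96.6%) were also higher at 24 h in LmLC and 407 (65.8%) passed the limit there, with median log2 ratios of 2.04 in LmHC and 1.77 in LmLC. Of all 9285 clustered contigs past the upward limit in LmHC, 98.8% were higher and 73.3% passed in LmLC. For the downward limit, 456 of 475 contigs (96.0%) in clusters chosen in LmHC were also lower in LmLC and 241 (50.7%) passed, against 98.2% and 49.7% of all 4526 such contigs.

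Cluster sums moved less than the contigs within them. The sum of FPKM over all contigs of a cluster stayed within 2-fold between 24 h and 0 h in both lines for 73 of the 115 clusters (63.5%), against 33.6% of all clusters with at least 2 expressed contigs. It was at least 2-fold higher in both lines for 6 clusters (5.22%, against 19.6%) and at least 2-fold lower in both for 23 (20.0%, against 27.4%). The other 13 clusters passed 2-fold in 1 line only. The clusters compared with are smaller. With 6 to 10 expressed contigs, sums within 2-fold were 66.7% of switching clusters and 43.8% of all, and higher sums 6.25% and 27.5%. With 11 or more they were 63.6% and 38.1%, and 9.09% and 40.8%. The same order held with 2 or 3 and with 4 or 5. Shares of lower sums were not taken by size. A cluster that must hold contigs of both directions is less free to move as a whole, so the rule bears on these shares. The median log2 ratio of the sums was -0.51 in LmHC and -0.47 in LmLC, near the -0.63 and -0.51 of all clusters with at least 2 expressed contigs. These medians depend on the scaling. The median log2 ratio of all expressed contigs was -0.20 in LmHC and -0.14 in LmLC as deposited, and 0.02 and 0.08 under median-of-ratios scaling. With that scaling, the sums of the same 115 clusters had medians of -0.10 and -0.16. Of these clusters, 79 (68.7%) stayed within 2-fold in both lines, and the balance turned to 11 higher (9.57%) and 8 lower (6.96%). Over all clusters with at least 2 expressed contigs, the medians were then -0.22 and -0.21. Among those, 45.0% stayed within 2-fold, 23.3% were higher and 13.7% lower, so the balance turned there too.

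**Figure D3:**
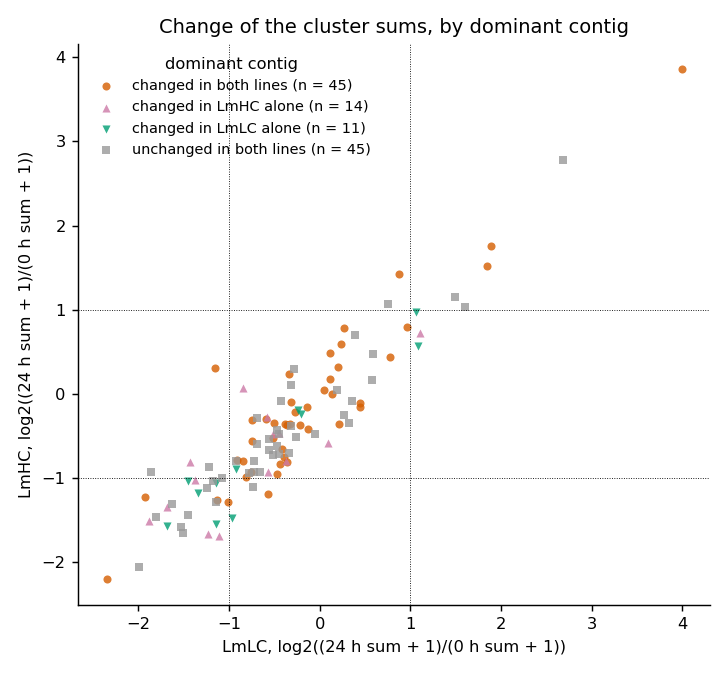
Log2 ratio of the cluster sums, 24 h over 0 h, in LmHC (vertical) against LmLC (horizontal) for the 115 switching clusters, with marker and colour by what happened to the dominant contig. Dotted lines mark 2-fold, and 73 clusters lie within it in both lines, with CL302 at the upper right at 3.85 and 3.99.

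In FPKM as deposited, the loss from down contigs was larger than the gain from up contigs in most clusters. The FPKM gained by up contigs at 24 h fell short of that lost by down contigs in both lines in 73 clusters, exceeded it in both lines in 31, and the order differed between the lines in 11. The median gain was 8.71 FPKM in LmHC and 7.52 FPKM in LmLC, and the median loss was 15.75 FPKM and 13.66 FPKM. These counts and medians were not repeated under median-of-ratios scaling. It divides values by 0.87 at 24 h and 1.17 at 0 h in LmHC, and by 0.91 and 1.13 in LmLC. That raises the gains and lowers the losses. As a share of the cluster sum, up contigs held a median of 22.8% at 24 h and 0.44% at 0 h in LmHC, and 19.1% and 0.43% in LmLC. Down contigs held a median of 6.89% at 24 h and 38.7% at 0 h in LmHC, and 7.41% and 38.2% in LmLC. The remaining contigs held a median of 63.2% at 24 h and 59.3% at 0 h in LmHC. Up contigs made up at least 50% of the sum at 24 h in both lines in 15 clusters, down contigs did so at 0 h in 41, and both held in 9.

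The dominant contig, the one with the highest FPKM of its cluster in a library, differed between 24 h and 0 h in both lines in 45 clusters (39.1%). Of all clusters with at least 2 expressed contigs, 11.6% showed such a change, but these clusters are smaller. With 6 to 10 expressed contigs it was 33.3% of switching clusters and 18.2% of all, and with 11 or more, 39.4% and 26.3%. With 2 or 3 it was 44.4% of the 9 switching clusters and 8.75% of all, and with 4 or 5, 48.0% and 15.0%. It was the same contig at both times in both lines in another 45 clusters, and it changed in LmHC alone in 14 and in LmLC alone in 11. In 28 of the 45 clusters with a change in both lines, the same pair of contigs was exchanged in both. Clusters with a change in both lines had a median sum of 37.9 FPKM, and 35 of the 45 kept their sums within 2-fold in both lines. Those with no change had a median sum of 80.3 FPKM, and 28 of the 45 kept within 2-fold.

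The fullest form of a switch, in which the dominant contig was a down contig at 0 h and an up contig at 24 h in both lines, was found in 18 clusters. In 14 of them the exchanged pair was the same in both lines, and in 13 the sum stayed within 2-fold in both lines. The dominant contig of these clusters held from 20.9% to 90.7% of the sum at 24 h and from 32.1% to 98.9% at 0 h in LmHC. CL10367, CL12027 and CL1718 are given as examples, chosen after their values were seen.

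CL10367 is the only switching cluster with 2 contigs. CL10367.Contig2_All had 31.12 FPKM at 24 h and 6.46 FPKM at 0 h in LmHC, and 28.27 FPKM at 24 h and 6.83 FPKM at 0 h in LmLC. CL10367.Contig1_All had 3.19 FPKM at 24 h and 15.86 FPKM at 0 h in LmHC, and 3.81 FPKM at 24 h and 20.26 FPKM at 0 h in LmLC. The first contig thus held 90.7% of the cluster at 24 h and 28.9% at 0 h in LmHC, and 88.1% and 25.2% in LmLC. The sum had log2 ratios of 0.60 in LmHC and 0.24 in LmLC.

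CL12027 holds 3 contigs, and its 0 h libraries were nearly all CL12027.Contig1_All. This contig had 7.97 FPKM at 24 h and 40.83 FPKM at 0 h in LmHC, and 7.53 FPKM and 40.21 FPKM in LmLC. CL12027.Contig2_All had 19.63 FPKM at 24 h and 0.44 FPKM at 0 h in LmHC, and 16.02 FPKM and 0.73 FPKM in LmLC. Its share of the cluster was 71.1% at 24 h and 1.07% at 0 h in LmHC, and 62.6% and 1.67% in LmLC. In CL1718, the dominant contig was CL1718.Contig4_All at 24 h, with 48.86 FPKM in LmHC and 35.08 FPKM in LmLC, against 7.73 FPKM and 6.28 FPKM at 0 h. CL1718.Contig7_All was dominant at 0 h, and had 15.43 FPKM at 24 h and 58.1 FPKM at 0 h in LmHC, and 7.87 FPKM and 47.81 FPKM in LmLC.

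Of the 18 clusters, 2 had sums at least 2-fold higher in both lines and 1 had a lower sum. CL302 and CL7350 were the 2 with a higher sum. CL7350 summed to 51.34 FPKM at 24 h and 17.3 FPKM at 0 h in LmHC, and to 55.41 FPKM and 14.7 FPKM in LmLC. CL7350.Contig5_All became dominant with 20.24 FPKM at 24 h and a listed 0 at 0 h in LmHC, and 21.86 FPKM and 0.25 FPKM in LmLC. CL7350.Contig2_All was displaced, listed at 0 at 24 h with 12.8 FPKM at 0 h in LmHC, and with 3.06 FPKM and 10.83 FPKM in LmLC.

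CL494 was the cluster with a lower sum, 52.5 FPKM at 24 h and 123.75 FPKM at 0 h in LmHC, and 43.55 FPKM and 168.28 FPKM in LmLC. CL494.Contig9_All had 8.34 FPKM at 24 h and 60.02 FPKM at 0 h in LmHC, and 6.88 FPKM and 73.98 FPKM in LmLC. CL494.Contig8_All passed it with 13.29 FPKM at 24 h and 0.93 FPKM at 0 h in LmHC, and 7.29 FPKM and 1.04 FPKM in LmLC. The lead of the second contig at 24 h was thus narrow in LmLC. In the same pattern, CL9382, CL5529 and CL2404 kept their sums within 2-fold and exchanged the same pair in both lines. CL5529.Contig6_All, for example, had 24.36 FPKM at 24 h and 3.39 FPKM at 0 h in LmHC, and 15.96 FPKM and 3.71 FPKM in LmLC.

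Among clusters with a sum of at least 10 FPKM in each library and a changed dominant contig, the sums of CL812, CL2545 and CL4809 moved least. CL812, with 22 contigs, summed to 121.49 FPKM at 24 h and 117.57 FPKM at 0 h in LmHC, and to 128.01 FPKM and 124.3 FPKM in LmLC. Its dominant contig at 0 h, CL812.Contig15_All, had 13.54 FPKM at 24 h and 58.61 FPKM at 0 h in LmHC, and 15.19 FPKM and 70.8 FPKM in LmLC. The dominant contig at 24 h, CL812.Contig10_All, was no up contig. It had 23.26 FPKM at 24 h and 15.42 FPKM at 0 h in LmHC, and 23.78 FPKM and 13.19 FPKM in LmLC, and it held 19.1% of the sum at 24 h in LmHC and 18.6% in LmLC.

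CL2545 summed to 110.91 FPKM at 24 h and 111.3 FPKM at 0 h in LmHC, and to 80.19 FPKM and 72.91 FPKM in LmLC. Its highest contigs were close together, none holding over 26.1% in any library, and the dominant contig at 0 h differed between the lines. CL4809 summed to 26.6 FPKM at 24 h and 29.62 FPKM at 0 h in LmHC, and to 26.2 FPKM and 29.06 FPKM in LmLC. CL4809.Contig4_All held 17.2% at 24 h and 75.4% at 0 h in LmHC, and 21.6% and 78.5% in LmLC. Its place was taken by CL4809.Contig2_All in LmHC, with 7.88 FPKM at 24 h and 0.40 FPKM at 0 h, and by CL4809.Contig5_All in LmLC, with 6.37 FPKM at 24 h and 0.23 FPKM at 0 h. Both of these were up contigs in both lines.

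**Figure D4:**
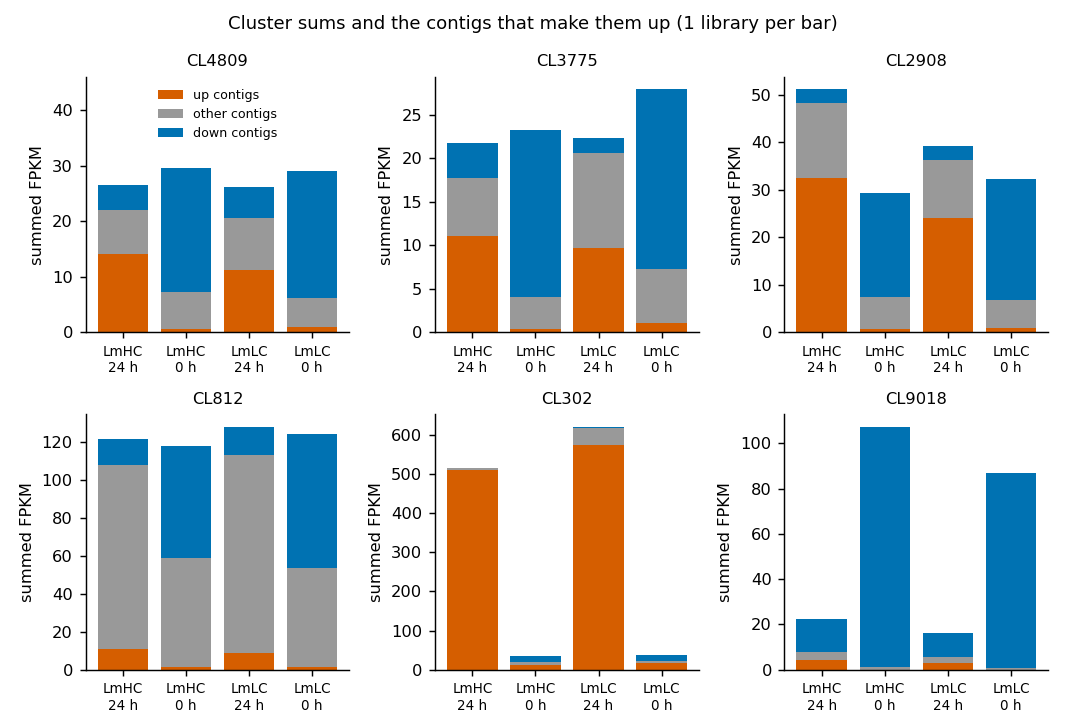
Summed FPKM of 6 clusters in each library, split into up contigs (orange), other contigs (grey) and down contigs (blue), 1 library per bar. In CL4809, CL3775 and CL2908 the blue part dominates at 0 h and the orange and grey parts at 24 h, CL812 keeps its height between 117.57 and 128.01 FPKM, and CL302 and CL9018 change in height.

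The largest shifts of composition were measured as a usage distance, the part of the cluster sum that would have to pass from some contigs to others to turn one library's shares into the other's, from 0 to 1. The largest shifts between times, taking the smaller of the lines, were those of CL2908, CL3775 and CL4372. In CL2908 the distance was 0.72 in LmHC and 0.76 in LmLC. CL2908.Contig6_All was listed at 0 at 24 h in both lines and had 9.15 FPKM in LmHC and 12.02 FPKM in LmLC at 0 h. CL2908.Contig4_All had 8.19 FPKM in LmHC and 8.94 FPKM in LmLC at 24 h and was listed at 0 in both at 0 h. The dominant contig at 24 h differed between the lines: CL2908.Contig5_All had 15.98 FPKM in LmHC at 24 h but 4.15 FPKM in LmLC.

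In CL3775 the distance was 0.72 in LmHC and 0.71 in LmLC, with sums between 21.76 and 27.91 FPKM. CL3775.Contig1_All had 4.08 FPKM at 24 h and 19.16 FPKM at 0 h in LmHC, and 1.65 FPKM and 20.59 FPKM in LmLC. CL3775.Contig5_All had 7.10 FPKM at 24 h in LmHC and 5.21 FPKM in LmLC, and at 0 h it was listed at 0 in LmHC and had 0.47 FPKM in LmLC. In CL4372 the distance was 0.82 in LmHC and 0.70 in LmLC. CL4372.Contig4_All had 0.40 FPKM at 24 h and 15.77 FPKM at 0 h in LmHC, and 2.00 FPKM and 19.1 FPKM in LmLC. No contig took its place: the highest at 24 h held 18.4% in LmHC and 13.8% in LmLC, and they were different contigs.

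Over all 115 clusters, the median usage distance between times was 0.44 in LmHC and 0.42 in LmLC, against 0.11 and 0.11 over all clusters with at least 2 expressed contigs. The rule fixes that direction. The distance between the lines, which the rule did not use as such, had a median of 0.13 at 24 h and 0.09 at 0 h, against 0.10 and 0.08 over all those clusters. In 110 clusters (95.7%), the distance between times exceeded that between the lines, whichever line and time were taken, against 34.7% of all clusters with at least 2 expressed contigs. The rule enlarges the distance between times, so nothing is read from this share. Against all clusters of like size, the median between the lines at 24 h was lower in switching clusters with 2 or 3 expressed contigs (0.04 against 0.08) and with 6 to 10 (0.116 against 0.123). It was higher in those with 4 or 5 (0.13 against 0.11) and with 11 or more (0.15 against 0.13). At 0 h the median between the lines was lower in switching clusters in each size class. It was 0.046 against 0.065 with 2 or 3 expressed contigs and 0.065 against 0.085 with 4 or 5. With 6 to 10 it was 0.087 against 0.098, and with 11 or more, 0.105 against 0.113.

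**Figure D5:**
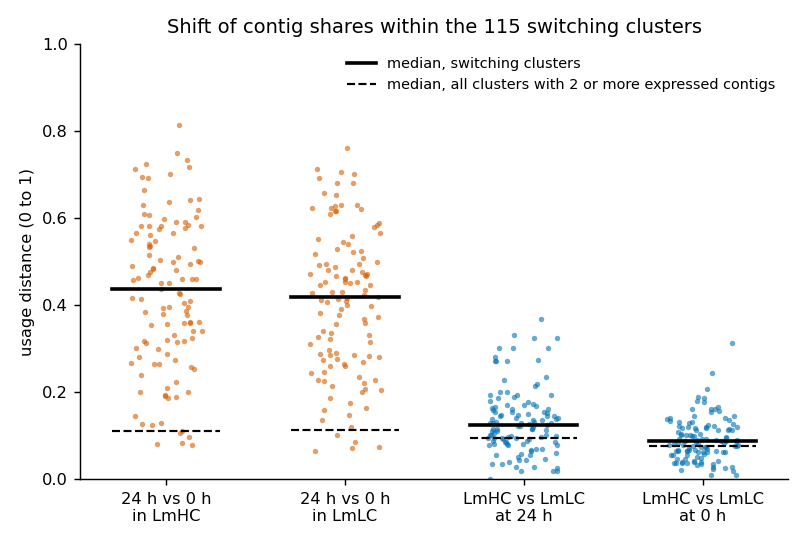
Usage distance, from 0 to 1, for the 115 switching clusters between 24 h and 0 h in each line (orange) and between LmHC and LmLC at each time (blue), 1 point per cluster. Solid bars mark their medians of 0.44, 0.42, 0.13 and 0.09, and dashed bars the medians of all clusters with at least 2 expressed contigs.

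The lines mostly shared their dominant contig. It was the same contig in LmHC and LmLC at 24 h in 82 of the 115 clusters (71.3%), against 81.9% of all clusters with at least 2 expressed contigs. At 0 h it was the same in 104 (90.4%), against 85.4%. The comparison at 24 h differed by size: the share was 88.9% of switching clusters and 83.7% of all clusters with 2 or 3 expressed contigs, and 60.0% and 79.4% with 4 or 5. It was 72.9% and 77.9% with 6 to 10, and 72.7% and 74.9% with 11 or more. At 0 h the share was higher in switching clusters in each of the 4 size classes, by the most with 6 to 10 (93.8% against 83.7%). The rule required the same contigs to rise and to fall in both lines, so it bears on this sharing. The dominant contig at 0 h was a down contig in both lines in 57 of the 115 clusters. At 24 h it was an up contig in both lines in 25. The size classes also do not match clusters on their sums. In 16 of the 33 clusters with different dominant contigs at 24 h, the shares of those contigs lay within 10 percentage points of each other in each line. In the switching clusters the dominant contig held less at 24 h, with medians of 31.6% in LmHC and 31.6% in LmLC, against 47.3% and 44.0% at 0 h. Over all clusters with at least 2 expressed contigs these medians were 56.9% and 56.3% at 24 h, and 60.9% and 60.3% at 0 h. Those clusters held a median of 3 expressed contigs, against 8 in switching clusters, and these medians were not taken by size. The difference is therefore not read as particular to the switching clusters.

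On the log2 scale with the pseudocount of 1, members differed 2-fold between the lines about as often as clustered contigs in general. At 24 h, LmHC exceeded LmLC by 2-fold or more in 35 of 993 expressed members (3.52%) and fell short of it by as much in 48 (4.83%), against 3.72% and 6.53% of all expressed clustered contigs. At 0 h, 14 (1.41%) were higher in LmHC and 41 (4.13%) lower, against 1.98% and 3.97%. In either direction together this is 8.36% of members at 24 h and 5.54% at 0 h, against 10.3% and 5.95% of all expressed clustered contigs. Of the 239 up contigs, 6 (2.51%) were 2-fold apart between the lines at 24 h and 1 (0.42%) at 0 h. Of the 163 down contigs, 18 (11.04%) were apart at 24 h and 11 (6.75%) at 0 h. The rule required up contigs to be raised, and down contigs to be lowered, in both lines. The median up contig at 0 h had 0.12 FPKM in LmHC and 0.15 FPKM in LmLC, where the pseudocount leaves little room for a 2-fold difference. The shares of up and down contigs are therefore not compared. The shares of members depend on the pseudocount: with 0.1, in the clusters chosen with it, 18.0% of members were apart at 24 h and 18.3% at 0 h.

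The clusters whose shares differed most between the lines at 24 h were CL8857, CL130 and CL592, with usage distances of 0.37, 0.33 and 0.32, and CL4372 was level with CL592 at 0.32. In CL8857 the lines differed at 0 h too, by 0.31. CL8857.Contig5_All had 4.49 FPKM at 24 h and 30.33 FPKM at 0 h in LmHC, and 0.89 FPKM and 18.68 FPKM in LmLC. CL8857.Contig7_All was listed at 0 at 24 h and had 6.53 FPKM at 0 h in LmHC, and it had 2.34 FPKM and 18.97 FPKM in LmLC. In LmHC at 24 h, CL8857.Contig5_All and CL8857.Contig6_All were tied at 4.49 FPKM, the only tie for the highest value in the 115 clusters.

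In CL130 many contigs rose together. It holds 24 contigs, 11 of them up contigs and 1 a down contig, and its sum was 122.68 FPKM at 24 h and 82.58 FPKM at 0 h in LmHC, and 168.34 FPKM and 79.12 FPKM in LmLC. CL130.Contig6_All had 7.35 FPKM at 24 h and 0.27 FPKM at 0 h in LmHC, and 40.07 FPKM and 0.33 FPKM in LmLC, where it became the dominant contig. CL130.Contig12_All, dominant at 0 h in both lines, had 18.66 FPKM at 24 h and 47.58 FPKM at 0 h in LmHC, and 15.23 FPKM and 41.97 FPKM in LmLC. In CL592, with 31 contigs, CL592.Contig24_All remained dominant in both lines, with 28.7% at 24 h and 53.5% at 0 h in LmHC, and 41.4% and 71.2% in LmLC. CL592.Contig8_All had 8.50 FPKM at 24 h and 35.22 FPKM at 0 h in LmHC, but 1.68 FPKM and 6.90 FPKM in LmLC, so it was lower at 24 h in both lines, and at both times it was higher in LmHC.

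By log2 ratio, the sums of CL302 and CL765 were the most raised. CL302 summed to 515.54 FPKM at 24 h and 34.74 FPKM at 0 h in LmHC, and to 620.32 FPKM and 37.97 FPKM in LmLC, and 11 of its 18 contigs were up contigs. The cluster's only down contig was CL302.Contig6_All, dominant at 0 h. It had 1.50 FPKM at 24 h and 14.02 FPKM at 0 h in LmHC, and 2.24 FPKM and 14.69 FPKM in LmLC. CL302.Contig15_All was dominant at 24 h with 167.97 FPKM in LmHC and 210.63 FPKM in LmLC, against 7.40 FPKM and 9.04 FPKM at 0 h. CL302.Contig3_All had 58.44 FPKM in LmHC and 39.2 FPKM in LmLC at 24 h and was listed at 0 in both at 0 h.

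Among the expressed members, CL302 also held the one with the largest difference of log2 ratio between the lines, named after its values were seen. CL302.Contig17_All had 37.09 FPKM in LmLC at 24 h and was listed at 0 in the other 3 libraries. CL765 summed to 213.47 FPKM at 24 h and 30.14 FPKM at 0 h in LmHC, and to 172.22 FPKM and 26.04 FPKM in LmLC. CL765.Contig11_All was its lone down contig, with 0.79 FPKM at 24 h and 4.98 FPKM at 0 h in LmHC, and 0.49 FPKM and 7.91 FPKM in LmLC. CL765.Contig3_All stayed dominant in all 4 libraries, and CL765.Contig2_All had 72.02 FPKM at 24 h and 2.68 FPKM at 0 h in LmHC, and 52.12 FPKM and 2.27 FPKM in LmLC.

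By log2 ratio, the sums of CL9018 and CL1707 were the most lowered. CL9018 summed to 22.56 FPKM at 24 h and 107.38 FPKM at 0 h in LmHC, and to 16.32 FPKM and 87.07 FPKM in LmLC. Of its 5 contigs 3 were down contigs, and CL9018.Contig1_All alone appeared, with 4.30 FPKM in LmHC and 3.12 FPKM in LmLC at 24 h and a listed 0 in both at 0 h. CL1707 summed to 175.19 FPKM at 24 h and 731.61 FPKM at 0 h in LmHC, and to 179.42 FPKM and 717.44 FPKM in LmLC. CL1707.Contig1_All and CL1707.Contig2_All carried this fall, and the 3 up contigs reached at most 5.35 FPKM, and the usage distance between times was 0.08 in LmHC and 0.07 in LmLC.

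Of the 3 most abundant switching clusters, CL505 and CL10977 met the rule through minor contigs, and CL3489 through its dominant contig and minor up contigs. CL505 summed to 1345.82 FPKM at 24 h and 2202.21 FPKM at 0 h in LmHC, and to 1589.02 FPKM and 2164.17 FPKM in LmLC. CL505.Contig14_All was dominant throughout, with 498.74 FPKM at 24 h and 900.24 FPKM at 0 h in LmHC. The 6 up contigs of CL505 reached at most 11.29 FPKM, and its down contig, CL505.Contig19_All, had 1.49 FPKM at 24 h and 6.54 FPKM at 0 h in LmHC, and 0.55 FPKM and 6.02 FPKM in LmLC. In CL10977, CL10977.Contig9_All had 31.31 FPKM in LmHC and 31.83 FPKM in LmLC at 24 h, against a listed 0 and 0.28 FPKM at 0 h, beside CL10977.Contig8_All with 355.33 FPKM and 486.57 FPKM at 24 h. CL3489 had 3 down contigs, which held 53.9% of its sum at 24 h and 64.2% at 0 h in LmHC, and 50.2% and 53.9% in LmLC. They were led by its dominant contig, CL3489.Contig7_All with 124.77 FPKM at 24 h and 406.27 FPKM at 0 h in LmHC, and 111.47 FPKM and 422.32 FPKM in LmLC. An up contig of the cluster, CL3489.Contig2_All, had 19.17 FPKM at 24 h and 2.79 FPKM at 0 h in LmHC, and 14.55 FPKM and 3.17 FPKM in LmLC.

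In the 45 clusters with no change of dominant contig, the dominant contig was neither an up nor a down contig in 35, a down contig in 9 and an up contig in 1. In these 35, it was lower at 24 h in both lines in 28, and within 2-fold in both lines in 16. CL14595, named after its values were seen, shows an exchange beneath a steady dominant contig and had the strongest pair, with every ratio of the pair at a log2 of at least 3.54 in size. CL14595.Contig7_All had 77.98 FPKM at 24 h and 3.90 FPKM at 0 h in LmHC, and 76.15 FPKM and 2.25 FPKM in LmLC. CL14595.Contig4_All had 5.76 FPKM at 24 h and 77.78 FPKM at 0 h in LmHC, and 1.40 FPKM and 104.64 FPKM in LmLC. CL14595.Contig2_All stayed highest, with 92.46 FPKM at 24 h and 102.76 FPKM at 0 h in LmHC, and 95.06 FPKM and 122.68 FPKM in LmLC.

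CL1865 kept its dominant contig too and held one of the largest falls of a member by log2 ratio, named after the values were seen. CL1865.Contig4_All had 0.12 FPKM at 24 h and 24.26 FPKM at 0 h in LmHC, and 1.09 FPKM and 29.41 FPKM in LmLC. CL1865.Contig9_All went the other way, with 27.89 FPKM at 24 h and 2.33 FPKM at 0 h in LmHC, and 28.12 FPKM and 2.97 FPKM in LmLC. The largest fall by log2 ratio among expressed members was that of CL525.Contig16_All, listed at 0 at 24 h with 48.43 FPKM at 0 h in LmHC, and with 0.62 FPKM and 53.23 FPKM in LmLC. At 0 h this contig alone held 42.6% of its cluster in LmHC and 48.3% in LmLC.

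Single contigs differed in response between the lines, and 3 more are named after their values were seen. CL157.Contig14_All had 0.07 FPKM at 24 h and 3.05 FPKM at 0 h in LmHC, but 4.25 FPKM and 1.85 FPKM in LmLC. CL3389.Contig4_All had 4.70 FPKM at 24 h and 10.07 FPKM at 0 h in LmHC, but was listed at 0 at 24 h with 11.45 FPKM at 0 h in LmLC. CL461.Contig19_All had 0.94 FPKM at 24 h and 6.16 FPKM at 0 h in LmHC, and 0.98 FPKM and 26.64 FPKM in LmLC. In CL461.Contig19_All the lines were close at 24 h and apart at 0 h, while in the other two they were apart at 24 h.

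CL41 and CL592 held the most contigs, 33 and 31. In CL41, 6 contigs were up contigs and the down contig was CL41.Contig26_All, with 0.39 FPKM at 24 h and 7.83 FPKM at 0 h in LmHC, and 0.66 FPKM and 5.49 FPKM in LmLC. CL41.Contig20_All was dominant in all 4 libraries, with 31.6% at 24 h and 27.2% at 0 h in LmHC. The sum of CL41 was 79.31 FPKM at 24 h and 35.15 FPKM at 0 h in LmHC, and 75.19 FPKM and 26.02 FPKM in LmLC.

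Just inside the rule were CL5275 and CL4374, whose weakest ratio was 1.50 and 1.51 in size on the log2 scale. Just outside it were CL4887 and CL7946, both at 1.50 when rounded and below the limit. CL4374.Contig3_All had 1.65 FPKM at 24 h and 6.54 FPKM at 0 h in LmHC, and 1.27 FPKM and 7.49 FPKM in LmLC. CL7946.Contig4_All, not counted, had 1.63 FPKM at 24 h and 9.13 FPKM at 0 h in LmHC, and 3.14 FPKM and 10.67 FPKM in LmLC.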

How the data were processed

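The deposited table holds FPKM values, made by the authors, for all contigs in 4 columns, 1 library each. The tools named in the submitters' processing notes are RSEM 1.2.8 and Bowtie2 2.2.5. Assembler, contig lengths and filters were not given in the sources used here. Columns were matched to samples by title. Clusters were read from contig names. The filter, pseudocount and log2 limits are stated with the results, and cluster sums used the same pseudocount. Members, lists and tests were chosen with earlier results of these data known. Clusters were named by a rule: highest sums, largest usage distances between times and lines, changed dominant contig with the steadiest sum, largest rises and falls of the sum, most contigs, and edges of the limit; others are marked as chosen after their values were seen. Relative depth is the most frequent ratio of low FPKM values between libraries, over stand-alone contigs, searched within a log2 of 0.5. The code of the rule was checked on simulated data, with changes planted in contigs well expressed at 0 h and with independent counts. That check does not cover low contigs or fragments divided among contigs of a cluster. With 1 library per group no test was run. Alternatives were other pseudocounts, filters, limits and a scaling, and a minimum share for qualifying contigs. Python 3.11.15, numpy 2.4.6, pandas 2.3.3 and matplotlib 3.10.9 were used.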

Additional observations from a re-analysis of the deposited data

Results flagged for a closer look

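In 13 of the 115 switching clusters the sum moved in opposite directions in the lines. They are given because the single 24 h and 0 h libraries of LmHC went one way and those of LmLC the other. This difference between the lines was not tested. In 12 of them no sum moved by more than 0.845 on the log2 scale. The exception is CL1574, whose sum had a log2 ratio of 0.31 in LmHC and of -1.16 in LmLC. It summed to 53.27 FPKM at 24 h and 42.89 FPKM at 0 h in LmHC, and to 52.2 FPKM and 117.71 FPKM in LmLC. The sums of the lines were thus close at 24 h and apart at 0 h. The shares within the cluster were not closer at 24 h, with a usage distance between the lines of 0.30, against 0.24 at 0 h. CL1574.Contig11_All was dominant at 24 h in both lines, with 22.84 FPKM in LmHC and 16.36 FPKM in LmLC. The cluster's 3 down contigs were higher in LmLC than in LmHC at both times. Among them, CL1574.Contig5_All had 6.75 FPKM in LmHC and 30.12 FPKM in LmLC at 0 h, and 1.71 FPKM and 5.13 FPKM at 24 h. With median-of-ratios scaling the ratios of CL1574 were 0.73 and -0.85. Of the 13 clusters, 5 still moved in opposite directions with that scaling, and 18 of the 115 did in all. The share of opposite sums over all clusters was not computed, so these counts are not read as many or few. The median absolute difference between the lines in the log2 ratio of the sum was 0.26 in switching clusters. It was 0.30 over all clusters with at least 2 expressed contigs.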

How the results depend on the processing

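The count of 115 switching clusters depends on the rule's settings: 286 and 8 when 0.1 and 5 were added before the log2, 26 when contigs had to average 5 FPKM, 75 with median-of-ratios scaling, 414 and 30 at log2 limits of 1 and 2, and 65 where qualifying contigs held at least 10% of the sum in a library of each line. With median-of-ratios scaling 66 of the 75 were among the 115. Shares of the clusters so chosen changed as follows. With 5 added, 87.5% of sums stayed within 2-fold, 0% were higher and 0% lower. For contigs averaging 5 FPKM, 11.5% of sums were lower, 57.7% of dominant contigs changed in both lines, 88.5% were shared at 24 h, and 50.0% of clusters chosen in LmHC met the rule in LmLC. With median-of-ratios scaling, 5.33% of sums were lower, and 46.8% of clusters chosen in LmLC met the rule in LmHC. For clusters chosen in LmHC and in LmLC, the recurrence was 50.4% and 62.6% at a limit of 1 and 33.2% and 45.6% with the 10% share, where 55.4% of dominant contigs changed. At a limit of 2 it was 45.2% for those chosen in LmLC. Of 120 alternative values, 86 stayed within the reported value's 95% binomial interval, 1.5 times the count, or the quartiles of the usage distance. The binomial intervals treat clusters or contigs as independent, and the alternative sets share clusters with the 115. These ranges are a yardstick only and measure no spread between replicates. The cause of the changes was not tested. No paired analysis was possible because each group has 1 library, and the replicate numbers do not pair samples. Each ratio of 24 h over 0 h was taken within a line. The absolute depth is unknown, so counting error cannot be given for low contigs.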
